A study of Mus musculus with 10 samples.

Results

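Tight junction genes were read in single mouse embryos as 8 genes: the claudins Cldn4, Cldn6 and Cldn7, the other membrane proteins Ocln, F11r and Marveld2, and the cytoplasmic proteins Tjp1 and Cgn. All probe sets (groups of short probes that report 1 transcript) whose array annotation gave 1 of these genes as the only symbol were taken. That rule found 11 of the 38676 probe sets in the deposited values: a pair each for Ocln, F11r and Cgn and 1 for each of the other 5 genes. The embryos were collected from the oviduct at 3.0 days post coitum (dpc), and each was hybridised to its own Affymetrix array. There were 5 wild-type (WT) embryos and 5 embryos with a knockout (KO) of Klf5, which encodes a Kruppel-like zinc finger transcription factor. They are named WT1 to WT5 and KO1 to KO5 after the labels. The labels do not say how the Klf5 allele was made, which strain was used or which embryos were littermates, so p-values reflect only how far these embryos varied.

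Tight junctions are belts of adhesion around the apical end of epithelial cells that seal the space between neighbours. Claudins, occludin and junctional adhesion molecules span the membrane, and the ZO proteins and cingulin tie them to the actin cytoskeleton from inside. In the mouse embryo the junctions are assembled stepwise from compaction onwards in the outer cells. The sealed trophectoderm that results lets fluid collect in the blastocyst cavity.

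None of the 10 tight junction probe sets that could be tested passed the test between KO and WT embryos. Levels are given as deposited intensities or as log2(intensity + 16), and differences are KO minus WT on that log2 scale. The added 16 makes differences of dim probe sets smaller than those of the intensities. The test was the moderated test of limma with Benjamini-Hochberg adjustment over 23174 probe sets, called at an adjusted p below 0.05. By that rule 0 of 10 were called, where 0.367% of all tested probe sets were. At an unadjusted p below 0.05 the count was also 0 of 10, against 10.1% of all tested. In 0 of 10 did the genotypes separate without overlap, against 2.33% of all. The KO mean was above the WT mean at 6 of 10 and below it at 4 of 10 (49.4% and 50.6% of all tested), with a median difference of 0.15 beside -0.0026 over all tested probe sets. The differences ran from -0.44 (Cldn4) to 0.44 (Tjp1), and the adjusted limma p from 0.67 to 0.989. With 5 embryos per genotype the 95% intervals still allowed changes of up to 2.56-fold down (Cldn4) and 2.57-fold up (Tjp1). These are folds of intensity + 16, and folds of the intensity itself can be larger. The eleventh probe set, 1 of the 2 for Cgn, lay below the level filter and was not tested. Because whole embryos were read, fewer cells of a type and less RNA per cell cannot be told apart.

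**Figure D1:**
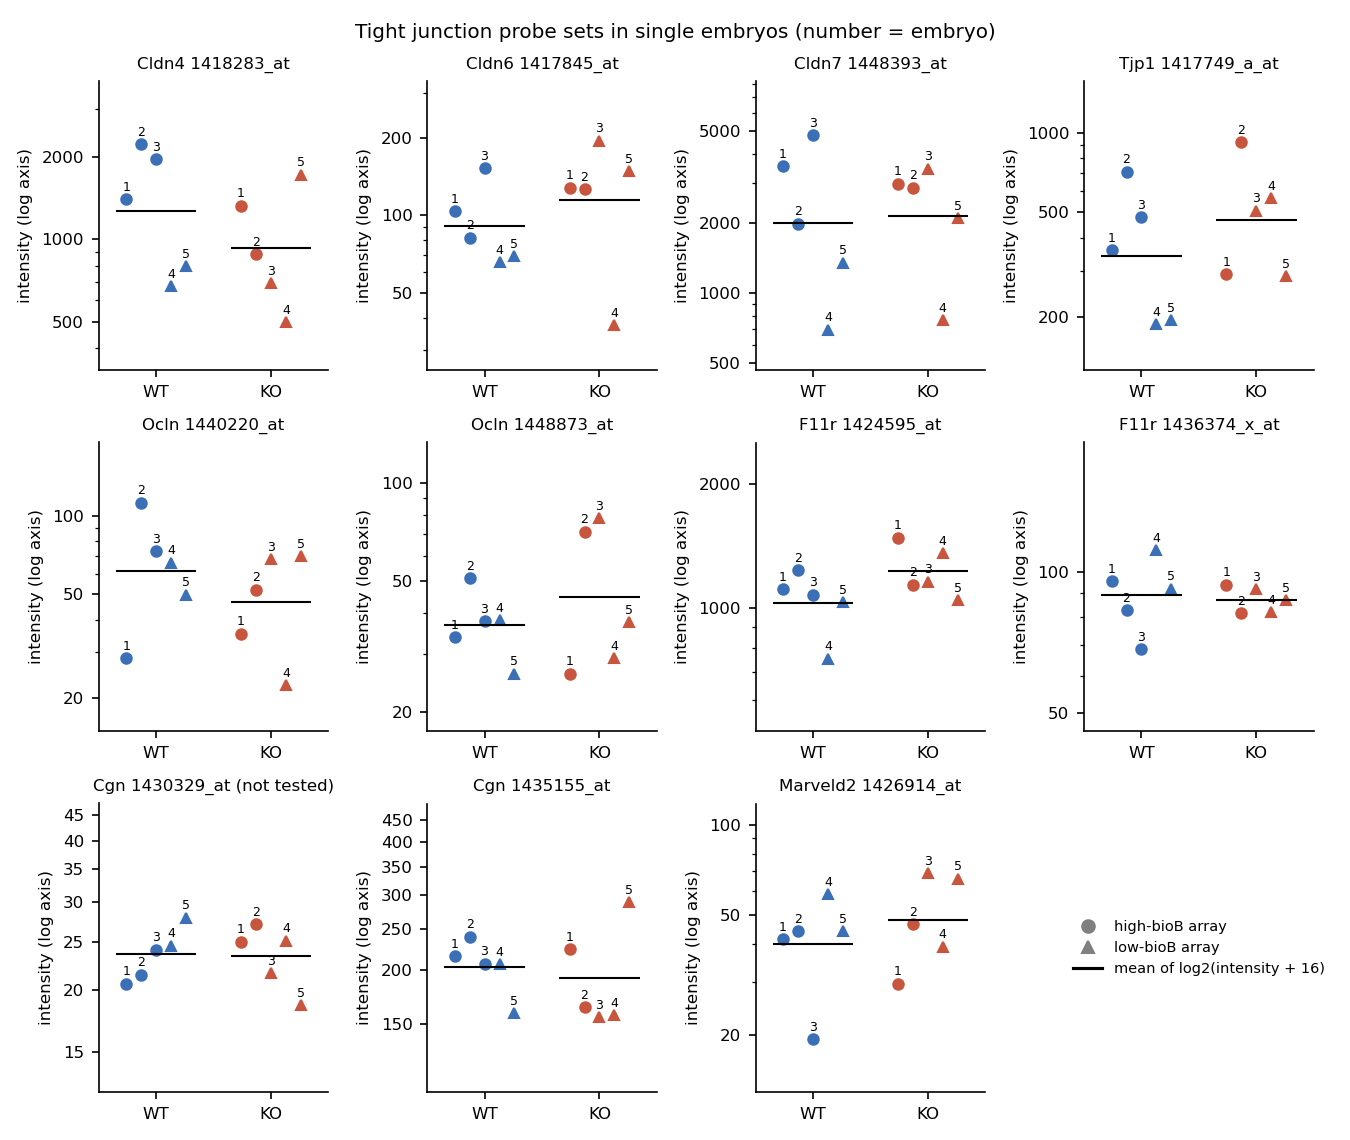
Deposited intensity (log axis, different range in each panel) of the 11 tight junction probe sets in 5 WT (blue) and 5 KO (red) embryos. Each point is 1 embryo with its number, circles and triangles are arrays with high and low bioB control signal, and the line is the genotype mean taken on the log2(intensity + 16) scale. WT and KO points overlap in every panel, and WT4 and WT5 are the lowest WT embryos for Cldn4, Cldn6, Cldn7 and Tjp1.

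The arrays and embryos were first checked against their labels. Klf5 intensity at probe set 1451021_a_at ran from 1096 to 4183 among wild-type and from 14.0 to 49.2 among knockout embryos, so each embryo followed its label (difference -6.04, adjusted p = 0.000162, exact two-sided permutation p = 0.00794, the smallest that 252 relabellings give). The check had been set for the Klf5 probe set with the highest mean, 1451739_at, which was not lower in KO embryos. It was higher by 0.71 (adjusted limma p = 0.248, exact two-sided permutation p = 0.0317). The third Klf5 probe set, at most 15.7 in any embryo, lay below the filter. The deleted part of Klf5 is not stated in the labels, and a probe set outside it would check nothing. Whether 1451739_at lies outside it is not known. The bioB hybridisation control split the arrays into a high set (WT1, WT2, WT3, KO1, KO2) and a low set (WT4, WT5, KO3, KO4, KO5). WT4 and WT5 also stood apart in their 90th percentile of intensity (422 and 427, against 472 to 553 in the other 8 embryos). Their actin 3' minus middle differences were 4.61 and 3.96, against 2.68 to 3.51 in the others. Marker genes of cell types were each read at their brightest probe set. The filter lay at the 40th percentile of probe set means. Being above or below it does not show that a cell type was present or absent. Of the trophectoderm markers Cdx2, Krt8, Krt18, Gata3, Tfap2c and Aqp3, 6 of 6 were above the filter, and so were 4 of 4 inner cell mass markers. The mean level of the trophectoderm list was 10.58 to 10.99 among wild-type and 9.35 to 9.77 among knockout embryos, without overlap. Krt8, Krt18, Tfap2c and Aqp3 each separated the genotypes, where 2.33% of all tested probe sets did. Of these 4 markers Krt8 passed (adjusted p = 0.00118). Krt18, Tfap2c and Aqp3 did not pass. Cdx2 overlapped (8.78 to 9.42 for WT, 8.28 to 9.23 for KO), as did Gata3 (8.12 to 9.40 and 8.80 to 9.53). The inner cell mass list had means of 6.90 to 8.56 for WT and 7.75 to 8.84 for KO. The part of these lists in the values of the tight junction genes was not tested. Of the 5 oviduct markers, 2 were above the filter, with list means of 5.44 to 5.73 for WT and 5.41 to 5.61 for KO. Of 5 cumulus and granulosa markers 3 passed it (5.63 to 5.80 and 5.68 to 5.84), and of 6 blood and immune markers 3 did (5.49 to 5.95 and 5.43 to 5.83). The blood and immune marker Cd52 also separated the genotypes (6.07 to 6.43 for WT and 5.64 to 5.98 for KO). It did not pass the limma test, and the cause of its difference was not tested. The other oviduct, cumulus, granulosa, blood and immune markers overlapped.

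The claudins, the tetraspan proteins that form the seal itself, were read at 1 probe set each. Claudin 4 and claudin 6 are known constituents of the trophectoderm barrier of the mouse blastocyst, and claudin 7 is widespread in simple epithelia. Their promoter sequences are shown because the regulator removed here is a Kruppel-like factor, a class that binds GC-rich and CACCC-type elements. Each line gives the 250 bases before a RefSeq transcript start (build GRCm38.p6), 5' to 3' on the gene's strand, with matches to CCNCNCCC on either strand in capitals.
Cldn4 promoter, chr5:134946935-134947184, minus strand: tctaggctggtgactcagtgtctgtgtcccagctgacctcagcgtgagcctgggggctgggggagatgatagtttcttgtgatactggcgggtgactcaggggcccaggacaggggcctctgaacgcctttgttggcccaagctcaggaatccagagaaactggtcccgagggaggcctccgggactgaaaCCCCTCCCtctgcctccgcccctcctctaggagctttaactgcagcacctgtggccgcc
Cldn6 promoter, chr17:23679115-23679364, plus strand: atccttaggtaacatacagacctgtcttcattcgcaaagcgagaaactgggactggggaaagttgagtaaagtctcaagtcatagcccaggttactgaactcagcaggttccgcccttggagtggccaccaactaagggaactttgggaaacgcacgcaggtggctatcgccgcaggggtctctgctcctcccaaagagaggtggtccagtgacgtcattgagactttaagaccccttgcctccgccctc
Cldn7 promoter, chr11:69964529-69964778, plus strand: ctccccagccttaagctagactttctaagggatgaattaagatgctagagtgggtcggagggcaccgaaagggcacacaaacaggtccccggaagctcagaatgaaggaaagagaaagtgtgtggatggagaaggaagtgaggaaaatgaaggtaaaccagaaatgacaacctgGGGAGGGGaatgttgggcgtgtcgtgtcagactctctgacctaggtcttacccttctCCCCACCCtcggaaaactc
Cldn7 promoter, chr11:69965171-69965420, plus strand: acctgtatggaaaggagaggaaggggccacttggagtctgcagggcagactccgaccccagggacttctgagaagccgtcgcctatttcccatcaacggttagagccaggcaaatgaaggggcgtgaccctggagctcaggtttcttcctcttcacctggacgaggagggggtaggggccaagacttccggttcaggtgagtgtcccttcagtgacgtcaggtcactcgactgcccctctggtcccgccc

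The letters CCNCNCCC or their reverse complement GGGNGNGG were found once before the Cldn4 start, at 2 places before the first Cldn7 start, and neither before the second Cldn7 start nor before the Cldn6 start. Among all 8 genes, 9 of 11 such windows and 7 of 8 genes held at least 1 match. The Ocln windows overlap and share matches, as do the Marveld2 windows, so some matches were counted in more than 1 window. Of 32851 promoter windows of the same length in the table, 45.9% held one. This share is of windows, and no share of genes was taken. No other motif was searched. Matches may overlap one another, and a match is a string of letters and not a measured site.

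Cldn4 (1418283_at) had the largest fall in mean among the members, and it did not pass. Its intensity was 1401, 2225, 1967, 673 and 798 in WT1 to WT5 and 1328, 880.0, 693, 497 and 1726 in KO1 to KO5. WT2 was the highest and KO4 the lowest embryo, 4 of 5 KO embryos lay inside the WT range, and 4 of 5 lay below the WT median. The mean level was 10.33 ± 0.76 for WT and 9.89 ± 0.71 for KO (SD, n = 5), which differ by -0.44 with a 95% interval of -1.36 to 0.47 (adjusted p = 0.851). Without WT4 and WT5 the difference was -0.96 (adjusted p = 0.370). It then had an unadjusted p below 0.05, as 12.3% of all probe sets did in that fit. Within the high-bioB arrays it was -0.75 (adjusted p = 0.522, with an unadjusted p below 0.05 as for 9.08% of all) and within the low-bioB arrays 0.20 (adjusted p = 0.880), so its direction was not the same in both sets. Cldn4 lies next to Cldn3, another barrier claudin, on chromosome 5 in assembly GRCm38.p6. The 4 tested Cldn3 probe sets differed by -0.41, -0.07, -0.02 and 0.13, and none passed.

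Cldn6 (1417845_at) was the dimmest claudin signal of the members in both genotypes as deposited. It read 104, 81.8, 153, 65.6 and 69.4 in WT1 to WT5 and 128, 126, 195, 37.4 and 148 in KO1 to KO5. KO3 was the highest and KO4 the lowest of the 10 embryos, so the KO embryos spanned the whole WT range. Its mean level was 6.74 ± 0.43 for WT and 7.03 ± 0.76 for KO (SD, n = 5; difference 0.29, 95% interval -0.48 to 1.06, adjusted p = 0.903). Without KO4 the difference was 0.61 (adjusted p = 0.424), with an unadjusted p below 0.05 as for 9.1% of all probe sets in that fit. Cldn9, its neighbour on chromosome 17 and a related claudin, differed by 0.30 with wide spread (8.88 ± 1.32 for WT and 9.18 ± 1.42 for KO, SD, n = 5, adjusted p = 0.968).

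Cldn7 (1448393_at) varied most between embryos among the 11 probe sets. Its intensity was 3528, 1998, 4804, 699 and 1356 in WT1 to WT5 and 2962, 2848, 3438, 768 and 2111 in KO1 to KO5. The highest embryo, WT3, read 6.87 times the lowest, WT4, and all 5 KO embryos lay inside the WT range. The mean level was 10.98 ± 1.09 for WT and 11.09 ± 0.86 for KO (SD, n = 5; difference 0.11, 95% interval -1.11 to 1.33, adjusted p = 0.989). The sign of that difference depended on which embryos were included: it was -0.58 without WT4 and WT5, -0.16 within the high-bioB arrays and 0.86 within the low-bioB arrays.

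Among the other membrane proteins, F11r, the junctional adhesion molecule JAM-A, was among the steadiest members. At 1424595_at it read 1113, 1236, 1078, 754 and 1034 in WT1 to WT5 and 1479.8, 1139.6, 1158, 1359 and 1045 in KO1 to KO5. KO1 was the highest and WT4 the lowest, and 4 of 5 KO embryos lay above the WT median. The mean level was 10.03 ± 0.26 for WT and 10.28 ± 0.20 for KO (SD, n = 5), which differ by 0.25 with a 95% interval of -0.08 to 0.58. Its adjusted limma p of 0.670 was the lowest of the 10 members. The other F11r probe set, 1436374_x_at, lay between 68.5 and 111 for WT and between 81.6 and 94.0 for KO (difference -0.03, adjusted p = 0.987). The x in its name marks probes that may also bind other transcripts.

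Ocln encodes occludin, the 4-pass membrane protein that stabilises the strands, and both of its probe sets were dim. At 1440220_at the embryos read 28.5, 112, 73.0, 66.2 and 49.9 (WT1 to WT5) and 35.4, 52.1, 68.0, 22.4 and 70.0 (KO1 to KO5). At 1448873_at they read 33.9, 51.2, 37.7, 38.1 and 26.1, and 26.2, 71.0, 78.2, 29.1 and 37.5. The 2 probe sets differed in sign, with -0.30 (95% interval -0.97 to 0.37) at the first and 0.20 (-0.33 to 0.74) at the second. Neither passed (adjusted p = 0.870 and adjusted p = 0.903), and WT2 was the highest WT embryo at both.

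Marveld2 encodes tricellulin, a relative of occludin found where 3 cells meet, and is the coding gene next to Ocln on chromosome 13. Its probe set 1426914_at read 41.5, 44.2, 19.4, 58.8 and 44.2 in WT1 to WT5 and 29.7, 46.7, 69.1, 39.3 and 66.0 in KO1 to KO5. WT3 was the lowest and KO3 the highest embryo, and the groups overlapped. The mean level was 5.81 ± 0.40 for WT and 6.01 ± 0.38 for KO (SD, n = 5; difference 0.20, 95% interval -0.30 to 0.71, adjusted p = 0.894). The level filter lay at 5.55, close below both means.

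On the cytoplasmic side, Tjp1 encodes ZO-1, the scaffold that binds claudins and occludin. Its 1 probe set, 1417749_a_at, read 358, 710.1, 478, 189 and 195 in WT1 to WT5 and 292, 918, 507, 564 and 285 in KO1 to KO5. WT4 and WT5 were the lowest of all 10 embryos and KO2 the highest. The mean level was 8.48 ± 0.79 for WT and 8.92 ± 0.68 for KO (SD, n = 5; difference 0.44, 95% interval -0.49 to 1.36, adjusted p = 0.855). This largest rise among the members was -0.08 without WT4 and WT5. It was 0.07 within the high-bioB arrays and 1.12 within the low-bioB arrays (adjusted p = 0.213), where its unadjusted p was below 0.05 as for 15.2% of all. A single probe set cannot separate the ZO-1 splice forms that differ by the alpha domain.

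Cgn encodes cingulin, which links ZO proteins to actomyosin. At 1435155_at it read 216, 240.1, 208, 207 and 159 in WT1 to WT5 and 224, 164, 156, 157 and 289 in KO1 to KO5. KO5 was the highest and KO3 the lowest embryo. The mean level was 7.78 ± 0.20 for WT and 7.70 ± 0.37 for KO (SD, n = 5; difference -0.08, 95% interval -0.48 to 0.32, adjusted p = 0.962). The untested Cgn probe set, 1430329_at, lay between 20.6 and 27.9 for WT and between 18.6 and 27.1 for KO.

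**Figure D2:**
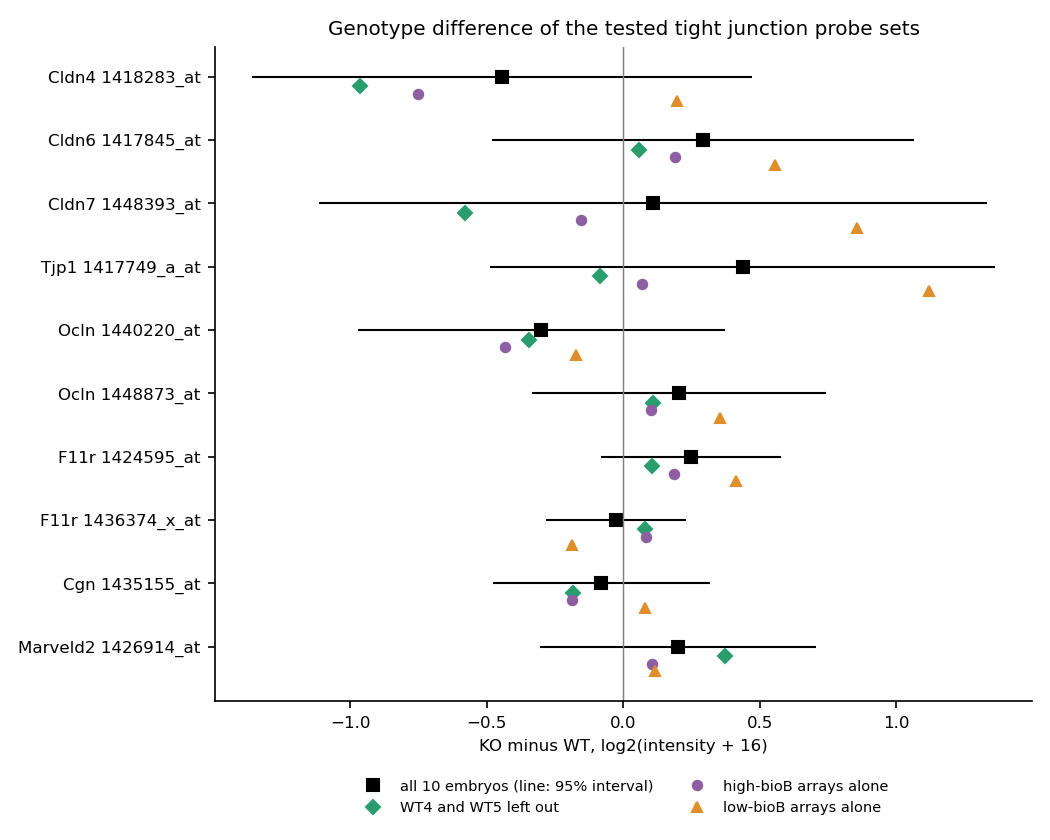
KO minus WT difference in log2(intensity + 16) for the 10 tested tight junction probe sets. Squares are the fit on all 10 embryos with the 95% interval as a line, and the other symbols come from leaving out WT4 and WT5 and from each bioB set alone. Every interval crosses 0, and the symbols of Cldn4, Cldn7, Tjp1, F11r at 1436374_x_at and Cgn fall on both sides of 0.

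Across these alternatives no member was called: 0 of 10 without WT4 and WT5 (0.315% of all were), 0 of 10 in the high-bioB arrays (0.00432%) and 0 of 10 in the low-bioB arrays (0% of all).

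The array sets were then compared within each genotype. WT4 and WT5 were both below WT1, WT2 and WT3 at 6 of the 10 tested probe sets (Cldn4, Cldn6, Cldn7, Tjp1, F11r at 1424595_at and Cgn at 1435155_at), where 21.3% of all tested probe sets showed this. The mean of WT1 to WT3 was 3.28 times that of WT4 and WT5 for Cldn7, and 2.46 times for both Cldn4 and Tjp1, on the scale of intensity + 16. F11r at 1436374_x_at and Marveld2 went the other way, with the low-bioB WT embryos higher by 0.26 and 0.43 (log2). Within WT embryos 0 of 10 passed an adjusted p of 0.05 by limma for the set (3.64% of all did), with Cldn4 nearest (adjusted p = 0.0534). At an unadjusted limma p below 0.05 there were 3 of 10 (Cldn4, Cldn7, Tjp1), against 22.2% of all. Among KO embryos the low-bioB arrays were lower in mean at 6 of 10, and 0 of 10 reached an unadjusted limma p below 0.05 (3.68% of all did). The interaction of genotype and set was not called for any member (0 of 10 at an unadjusted p below 0.05, against 12.6% of all), and it was called for 0 of the 23174 probe sets. The low 90th percentile and the high actin 3' minus middle difference of WT4 and WT5 moved with these values, and their part in them was not tested.

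The members were next compared with each other across embryos, each gene at its brightest tested probe set and after the genotype mean was subtracted. Of 28 pairs, 19 had a positive and 9 a negative Pearson r, with a median of 0.24. Pairs of other genes were not counted in this way. Whether these values differ from those of other genes was therefore not tested. The permutations shuffled all 10 embryos and did not allow for the removed genotype means, so their p-values can be too small. Cldn6 and Cldn7 were the closest pair (r = 0.86, permutation p = 0.00056, adjusted p = 0.0157; Spearman rho = 0.82, permutation p = 0.00568, adjusted p = 0.0984; n = 10). Leaving out KO3 and KO4, the embryos farthest from the Cldn6 median, gave r = 0.86, and leaving out WT4 and WT5 gave 0.94. Cgn and Cldn4 followed (r = 0.78, permutation p = 0.00775, adjusted p = 0.109; rho = 0.81, permutation p = 0.00703, adjusted p = 0.0984), with 0.70 when WT5 and KO5 were left out. The r of 0.66 between Cldn4 and Cldn7 (permutation p = 0.0409, adjusted p = 0.321) fell to 0.21 without WT4 and KO4, the embryos farthest from the Cldn4 median. Leaving out the farthest embryos narrows the range of values, which can itself lower r. F11r and Marveld2 had the most negative r (-0.64, permutation p = 0.0459, adjusted p = 0.321; rho = -0.66, permutation p = 0.043, adjusted p = 0.401), with -0.41 when WT4 and KO5 were left out. With the mean of each genotype and bioB set removed, an alternative chosen after the data were seen, r was 0.92 for Cldn6 and Cldn7, 0.83 for Cgn and Cldn4, 0.30 for Cldn4 and Cldn7 and -0.47 for F11r and Marveld2 (6 residual degrees of freedom, given without a test). All values of an embryo share 1 array.

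**Figure D3:**
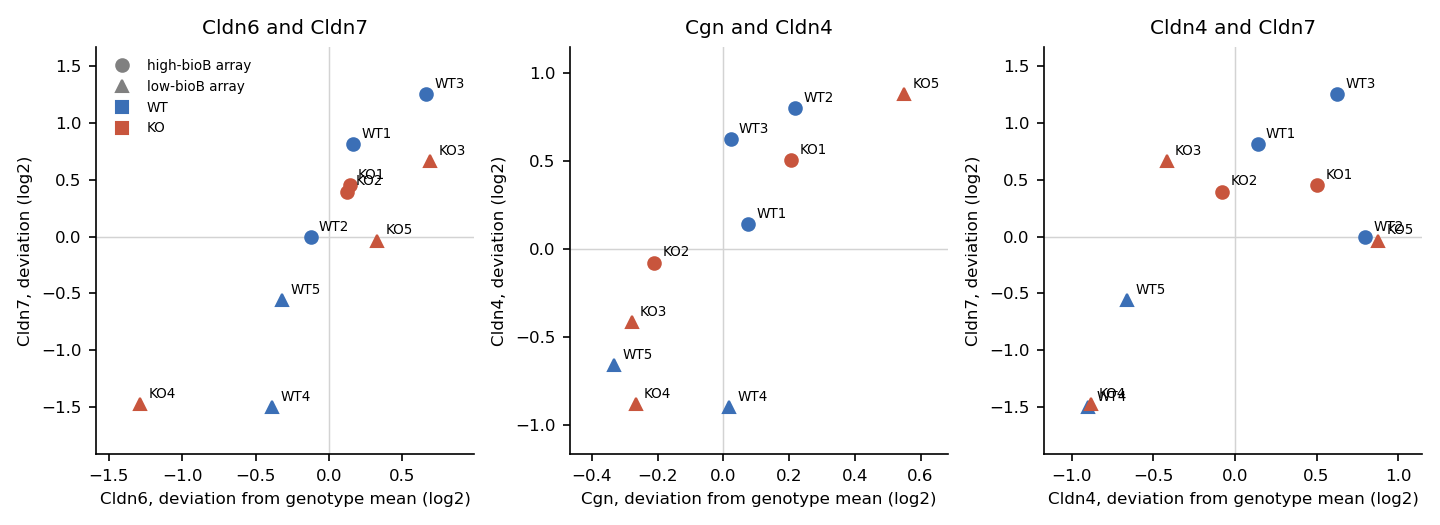
Deviation of each embryo from its genotype mean, in log2(intensity + 16), for Cldn6 against Cldn7, Cgn against Cldn4 and Cldn4 against Cldn7. Points are single embryos, blue WT and red KO, with circles for high-bioB and triangles for low-bioB arrays. The Cldn6 and Cldn7 points lie near a line (r = 0.86), while in the right panel WT4 and KO4 lie together at the lower left.

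Transcripts of other genes with the most similar deviations were then listed, 2 for each member, over the same 10 embryos. They were Nubp2 and Mospd3 for Cldn4 (r = 0.97 and 0.96), Slc35b2 and Tbc1d9b for Cldn6 (0.97 and 0.96) and Sqstm1 and Hint1 for Cldn7 (0.96 and 0.96). For Tjp1 they were Larp4 and Tra2b (0.97 and 0.96) and for Cgn Dffa and Mrps23 (0.96 and 0.95). For F11r they were Kmt2b and Chd1 (0.95 and 0.94), for Marveld2 Tmx3 and Mpped2 (0.96 and 0.93) and for Ocln Nr2c2 and Yju2 (0.91 and 0.90). No tight junction gene was among these 16, and values this high are picked from all tested probe sets as the highest, so they are a description only.

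Other genes of the tight junction were read from a list of 55 names, of which 47 were in the table and 33 had a tested probe set. Of their 59 tested probe sets 0 were called by limma in either direction, against 0.367% of all tested. At an unadjusted limma p below 0.05 there were 6, of which 1 was higher and 5 lower in KO embryos, close to the 10.1% of all tested. The median difference was -0.02, beside -0.0026 over all. Among 11 tested probe sets of claudins and claudin-domain genes 4 were higher and 7 lower, with 0 at an unadjusted limma p below 0.05. The smallest p values there belonged to Cldnd1, a claudin-domain protein (0.99, adjusted p = 0.646), Cldn12 (-0.69, 0.687) and Cldn22 (0.18, 0.744).

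In the membrane proteins outside the claudins, 6 tested probe sets were higher and 12 lower. Crb3, an apical polarity protein that acts at the tight junction, had means of 10.90 ± 0.27 for WT and 9.90 ± 0.53 for KO at 1434851_s_at (SD, n = 5; difference -1.0, adjusted p = 0.147). It was the single probe set of the 59 whose genotypes did not overlap, where 2.33% of all tested did not, and its other probe sets differed by -0.35 and -0.10. Marveld3, the third protein of the occludin family, was at 5.96 ± 0.30 and 7.06 ± 0.80 at 1453264_at (SD, n = 5; difference 1.10, adjusted p = 0.258), and differed by -0.02 and 0.50 elsewhere. Esam, an adhesion molecule of endothelial junctions, differed by -0.30 (adjusted p = 0.476). In the cytoplasmic proteins 13 were higher and 17 lower. Pard6b, a polarity protein of the apical complex, was at 8.13 ± 0.35 and 7.09 ± 0.48 at 1423175_s_at (SD, n = 5; difference -1.04, adjusted p = 0.132), and passed when KO5 was left out (-1.23, adjusted p = 0.0499, in a fit that called 0.263% of all). It did not pass in any other alternative, with -0.55 in the low-bioB arrays (adjusted p = 0.505) and adjusted p = 0.242 with the replicate block, and its other probe set, 1423174_a_at, differed by -0.69 (adjusted p = 0.671). Tjp3, which encodes ZO-3, differed by -1.0 (adjusted p = 0.435), with means of 7.96 ± 0.43 for WT and 6.96 ± 0.94 for KO (SD, n = 5). Arhgef2, a guanine nucleotide exchange factor for RhoA, differed by -0.29 at 1421043_s_at (adjusted p = 0.385).

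**Figure D4:**
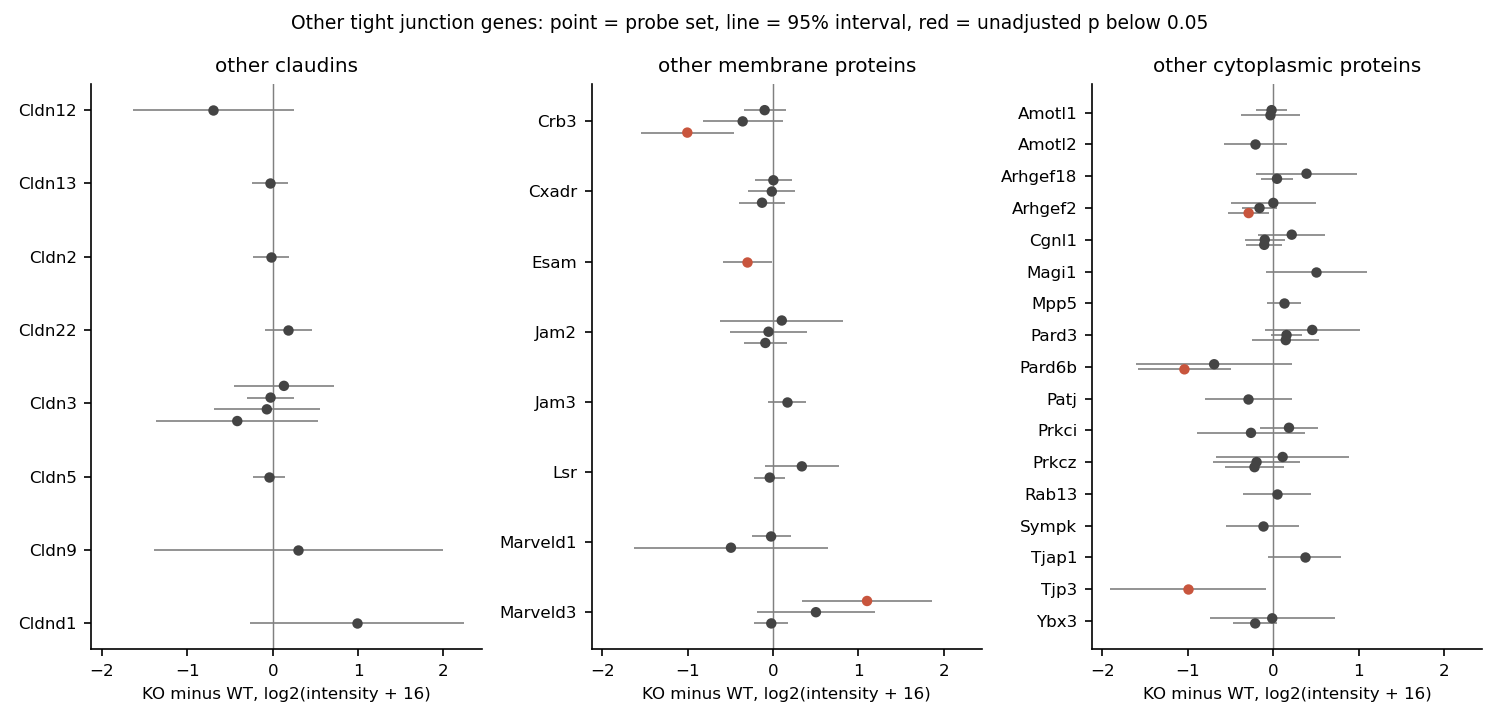
KO minus WT difference in log2(intensity + 16), with its 95% interval, for the 59 tested probe sets of other tight junction genes in 3 groups. Points of 1 gene are its probe sets, and the 6 red points have an unadjusted limma p below 0.05. Most points lie near 0, and none passed the adjusted test.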

How the data were processed

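RNA of single embryos was turned into cDNA and amplified after Kurimoto and colleagues, labelled with biotin and hybridised to Affymetrix arrays, per the labels' protocols. The deposited values are intensities on a linear scale, as judged from the values (array medians 40.0 to 43.6, all above 0). Background correction, probe set summary and scaling across arrays are not stated in the sources used here, and GeneSpring GX is named in the series' description. The amplification favours transcript 3' ends, so a probe set far from the 3' end can read low.

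Values were transformed as log2(intensity + 16). The 53 control probe sets and those with a mean below the 40th percentile (5.55) were left out, and 23174 were fitted with limma 3.58.1 in R 4.3.3 (lmFit, eBayes, two-sided, no covariate). Intervals are limma's 95% intervals. Of all probe sets 30854 had 1 gene symbol, 781 several and 6988 none. The script was tested on simulated data. Correlations used 100000 permutations in numpy 2.4.6, adjusted over the 28 pairs. Promoters and neighbouring genes came from RefSeq tables of GRCm38.p6.

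The members, lists, tests and alternatives were chosen with earlier results of these data known. Named genes are all members, the 3 smallest p values in each of 3 lists of other tight junction genes, and for likeness the 2 highest r per member. Neighbouring Cldn3 and Cldn9 fall outside this rule and were named after their values were seen. Alternatives were quantile normalization, median centring, other filters and pseudocounts (1 and 64), a trend with a robust prior, the replicate block, the bioB set as a block or alone, and leaving out embryos.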

Additional observations from a re-analysis of the deposited data

Results flagged for a closer look

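Among the 20 named probe sets, the 5 embryos of each genotype were examined for 1 embryo far from the other 4, in 40 groups, and 4 were found. Chance alone gives about 1 in 20 groups. Cldn6 in KO4 was at 5.74, below the 7.15 to 7.72 of the other KO embryos. Cldn12 in WT2 was at 7.35, below the 8.48 to 8.86 of the other WT embryos, and in KO1 at 6.21, below 7.96 to 8.36. Crb3 in WT4 was at 11.37, above the 10.70 to 10.88 of the other WT embryos. All are log2(intensity + 16).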

How the results depend on the processing

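The count of tight junction members called by limma was 0 under every alternative run, including each embryo left out in turn, and 1 member each reached an unadjusted limma p below 0.05 without WT4 and WT5, in the high-bioB arrays alone, in the low-bioB arrays alone and without KO4. The 60th percentile filter left 7 member probe sets. Over all probe sets the count of 85 became 24 with the replicate block, 1 in the high-bioB arrays alone and 0 in the low-bioB arrays alone (where 3512 had an unadjusted limma p below 0.05), and lay between 45 and 63 with 1 embryo left out. Embryos of the same number deviated together at r of -0.03 to 0.18. The most similar KO embryo had the same number for WT2 and WT4 but not for WT1, WT3 or WT5. The labels do not say whether the number pairs embryos, and these values cannot decide it. The replicate block changed no call of a tight junction gene. Called other tight junction probe sets numbered 0 to 1 with 1 embryo left out. Klf5 at 1451021_a_at differed by -5.05 in the low-bioB arrays alone (adjusted p = 0.0951). Signs turned for Cldn4 (0.20) and Cgn (0.079) in the low-bioB arrays. They turned for Cldn7 in the high-bioB arrays (-0.16) and without WT4 and WT5 (-0.58), where Tjp1 was also reversed (-0.083). F11r at 1436374_x_at turned in the same fits (0.084 and 0.079). With 1 embryo left out Cldn7 ranged from -0.27 to 0.48, turning without WT4 (-0.27), WT5 (-0.03), KO1 (-0.0045) or KO3 (-0.06), and that F11r probe set ranged from -0.105 to 0.043. Cldnd1 turned in the high-bioB arrays (-0.26) and Cldn22 in the low-bioB arrays (-0.040). The causes were not tested. No detection calls were used, so dim probe sets (Ocln, Marveld2, Cgn at 1430329_at) have no measured floor.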
